A study of Mus musculus with 6 samples.

Results

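Translation initiation factors were followed at the mRNA level in cultured fetal mouse hepatocytes that lack Cnot3. Members were the genes whose annotated symbol begins with Eif followed by a digit from 1 to 6, without the eIF2 kinases (Eif2ak) and the former Eif2c names of the Argonautes. These were 43 of the 18193 genes that a probe set of the array names alone, with 4 genes in the Eif1 group, 10 in Eif2, 11 in Eif3, 13 in Eif4, 4 in Eif5 and 1 in Eif6. Where several probe sets name a gene, the one brightest on average across the 6 arrays stands for it. Eif1, Eif2s1, Eif3g and Eif4g1 were not analysed here.

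The hepatocytes came from E16.5 embryos and were cultured with serum, oncostatin M and dexamethasone. Cnot3KO cells were from Cnot3LKO embryos, in which Cre driven by the albumin promoter deletes both Cnot3 alleles, which are floxed, in cells of the hepatocyte lineage. The paper reports an incomplete loss of Cnot3 at E16.5. It reports an efficient loss by the time in culture at which it compared expression and half-lives. Control cells were from embryos that the labels call wild type, and the methods allow several control genotypes, among them embryos that carry Cre and a single floxed allele, in which that allele is deleted in the same cells. Transcription was blocked in both genotypes with actinomycin D (ActD) for 0, 6 or 12 h, and total RNA of each genotype and time was hybridised to 1 Affymetrix mouse array. How many embryos stand behind an array, and of which sex, is not given in the sources used here.

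Initiation brings the small ribosomal subunit, loaded with initiator tRNA by eIF2, to the capped end of an mRNA that the eIF4 proteins have recognised and unwound, with eIF3 as the scaffold between them. eIF1, eIF1A and eIF5 govern the choice of the start codon, eIF2B reloads eIF2 with GTP, eIF5B joins the large subunit and eIF6 keeps free large subunits from joining too early. The Cnot complex shortens poly(A) tails, which is the first step in the decay of many mRNAs, and hepatocytes depend on high protein output for the plasma proteins they secrete.

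Array medians lay between 69.7 and 72.4 in intensity, and 42 of the 43 members exceeded the median of every array. Cnot3 itself read 174, 174 and 146 in Cnot3KO cells at 0, 6 and 12 h, against 296, 214 and 158 in control cells, a log2 difference of -0.39 ± 0.18 (SE) over the 3 times with an adjusted p of 0.18. Whether that probe set lies in deleted sequence was not checked. Of the hepatocyte markers, 9 were tested and their median log2 difference was -0.01. Markers of other liver cells moved with genotype: the median was -0.61 over 9 macrophage markers, of which 2 (Mrc1 and Vsig4) passed the test as lower in Cnot3KO cells, -0.48 over 8 endothelial markers and -0.77 over 7 stellate cell and fibroblast markers, but 0.23 over 4 cholangiocyte markers, and the part of these cells in the values below was not tested. The summed intensity of the macrophage markers was 5888 to 6049 on the Cnot3KO arrays, against 7617 to 9678 on the control arrays. For the endothelial markers the sum was 491 to 986 on Cnot3KO arrays and 696 to 1478 on control arrays, and for the stellate cell and fibroblast markers 6830 to 10842 on Cnot3KO arrays and 14264 to 15551 on control arrays. Xist read 2692 to 3838 in Cnot3KO cells and 2938 to 4468 in control cells, while the Y-linked Uty read 63.7 to 125 in Cnot3KO cells and 13.1 to 86.3 in control cells, and the part of embryo sex in the values was not tested.

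Initiation factor mRNAs were higher in Cnot3KO than in control cells more often than they were lower. At each of the 3 times 21 of the 43 were higher in Cnot3KO cells (48.8%), against 30.5% of the 16499 genes tested, and 6 were lower (14%), against 29.2%. Eif2b4, the delta subunit of the exchange factor eIF2B, was the only member past the test as higher (2.33%), against 0.703% of all genes, and 0 members passed as lower, against 0.285% (limma with Benjamini-Hochberg adjustment over all genes tested). At an unadjusted p under 0.05, 17 members were higher (39.5%, against 22.4% of all genes) and Eif4g2 and Eif4g3 were lower (4.65%, against 11%). The 18 members that passed only without adjustment had adjusted p-values between 0.0526 and 0.142. The median log2 difference was 0.20 for the members and -0.03 for all genes tested. Members are bright, with 27 of the 43 above the 90th percentile of genes by mean intensity. When dimmer genes were removed by a stricter intensity cut (50th percentile), the gap was narrower, at 0.22 for 42 members and 0.07 for all genes. Under that cut 16 members were higher at an unadjusted p under 0.05 (38.1%, against 26.7% of all genes). No comparison with genes of like intensity was run. The members' median was 0.03 with probe sets of a gene averaged (-0.04 for all genes) and 0.08 with Gapdh centring (-0.14), and with only unique probe sets it was 0.08 (-0.05), where 9 of 34 members were higher at an unadjusted p under 0.05 (26.5%, against 21% of all genes). With 1 array for each genotype and time, these p-values measure agreement over the times and not over embryos, and fewer cells of a type and less RNA per cell cannot be told apart. Groups that are said below to overlap or not are the 3 arrays of each genotype, which are points of a single course and not replicates. The share of all genes without such overlap is not given, so a lack of overlap only describes the values.

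**Figure D1:**
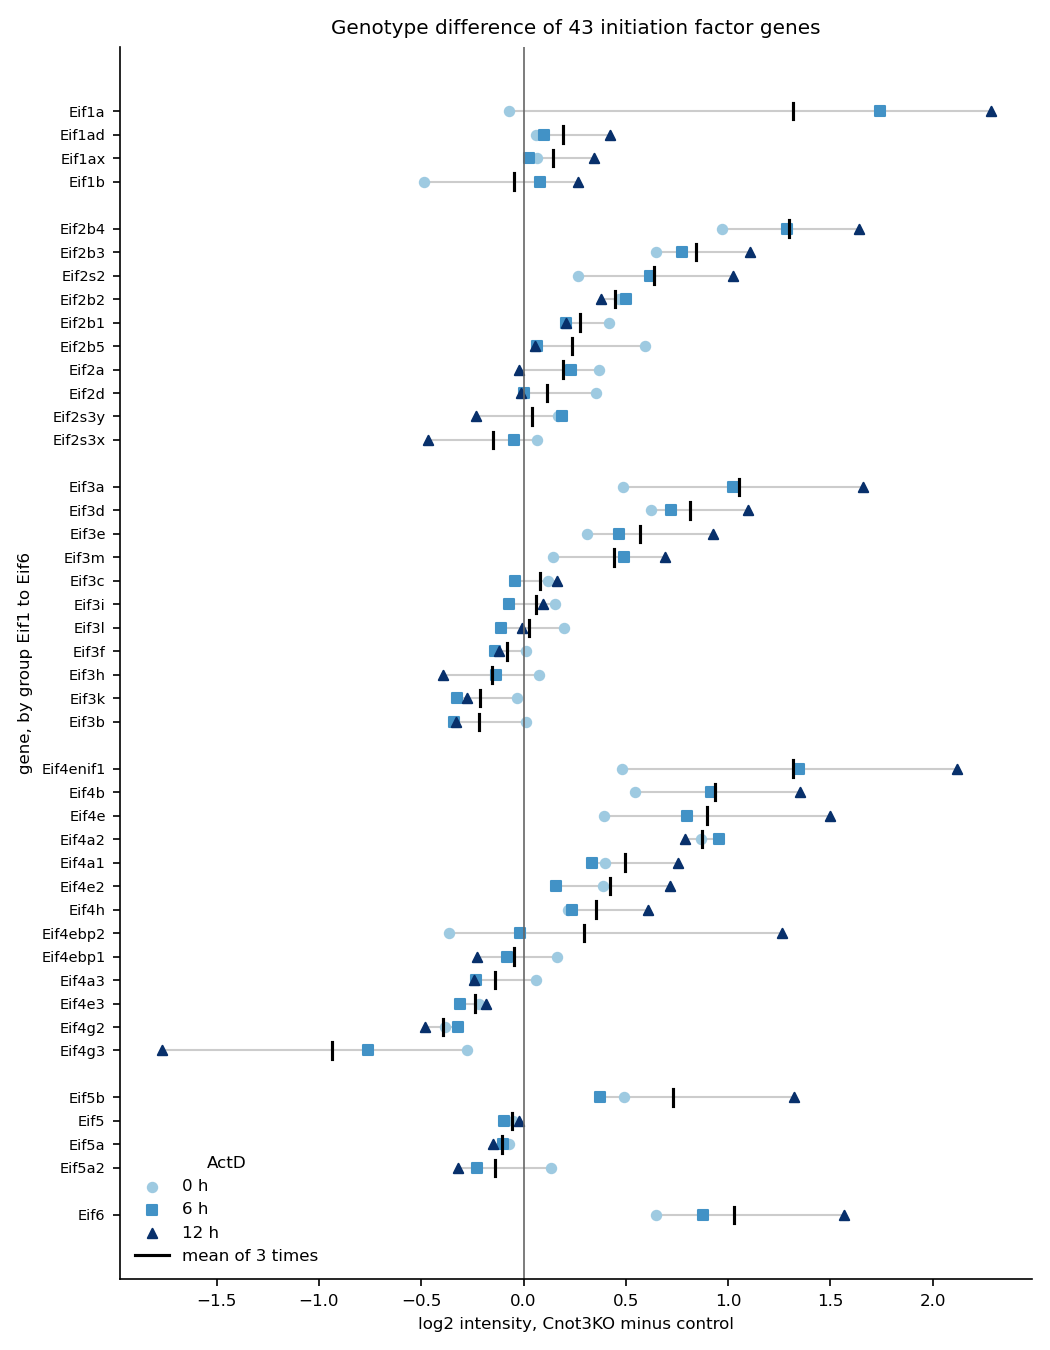
Log2 intensity in Cnot3KO minus control cells (x axis) for each of the 43 genes (y axis, by group Eif1 to Eif6), with a circle for 0 h, a square for 6 h, a triangle for 12 h of ActD and a black bar for their mean. Eif1a, Eif4enif1 and Eif2b4 have the highest means, at 1.32, 1.32 and 1.30, and Eif4g3 the lowest, at -0.94.

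Within Eif1, Eif2, Eif3 and Eif4 the values were spread more widely than the medians of the 6 groups. The median log2 difference over the 3 times was 0.17 in Eif1, 0.26 in Eif2, 0.06 in Eif3, 0.35 in Eif4 and -0.08 in Eif5, and Eif6 had 1.03. Centring the arrays on Gapdh lowered every difference, shifted the median of all genes to -0.14 and turned the Eif3 median to -0.05, while the medians of Eif1, Eif2, Eif4 and Eif5 kept their sign at 0.06, 0.15, 0.24 and -0.19. Within Eif4 the values ran from -0.94 to 1.32, and within Eif3 from -0.22 to 1.06. No test was run between groups, whose members number between 1 and 13.

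Before ActD, 6 members were over 1.5-fold higher in Cnot3KO than in control cells (14%, against 6.71% of all genes) and 0 were over 1.5-fold lower (against 2.92%). These were Eif2b3, Eif2b4, Eif2b5, Eif3d, Eif4a2 and Eif6, between 1.51-fold and 1.96-fold. This count rests on 1 array a genotype, has no test and was 2 (Eif2b4 and Eif4a2) with the arrays centred on Gapdh. The share of all genes at that setting is not given. The median over all members at 0 h was 0.17 on the log2 scale, against 0.03 for all genes. With Gapdh centring, which lowered every 0 h difference alike, the medians were 0.10 and -0.03.

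For eIF2B, the factor that exchanges GDP for GTP on eIF2, all 5 subunits were higher in Cnot3KO cells at all 3 times. Eif2b4 read 2838, 3155 and 3251 in Cnot3KO cells at 0, 6 and 12 h, against 1447, 1294 and 1043 in control cells. Every Cnot3KO array was above every control array, and the log2 difference over the 3 times was 1.30 ± 0.18 (SE), or 2.46-fold (adjusted p = 0.0499). The gene has a single probe set, and its call was lost with other filters (adjusted p = 0.0512 with none and 0.0577 at the 50th percentile), with 16 added to the intensity (0.0617), without the 6 h arrays (0.371) and without the 12 h arrays (0.0579). Eif2b3, the gamma subunit, read 799, 871 and 618 in Cnot3KO cells, against 510.0, 509.8 and 286 in control cells. Its groups did not overlap either, and the log2 difference was 0.84 ± 0.16 (adjusted p = 0.053). Eif2b5, the catalytic epsilon subunit, read 3099.7, 3212 and 3006 in Cnot3KO cells and 2052, 3069 and 2891 in control cells. Here the gap was at 0 h, with a log2 difference of 0.60, against 0.07 at 6 h and 0.06 at 12 h. Eif2b1 and Eif2b2, the alpha and beta subunits, had log2 differences of 0.28 ± 0.14 and 0.45 ± 0.14 (adjusted p = 0.22 and 0.088).

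eIF2 itself, which carries the initiator tRNA, did not move as a unit. Eif2s2, the beta subunit and the brightest Eif2 probe set, read 10864, 11312 and 10596 in Cnot3KO cells, against 9021, 7375 and 5209.9 in control cells. All Cnot3KO values exceeded all control values, with a log2 difference of 0.64 ± 0.19 (adjusted p = 0.083), although its 6 probe sets gave differences from -0.42 to 0.64. The gamma subunit is encoded by a gene on the X chromosome and a copy on the Y chromosome, whose sequences are alike enough that a probe set may take up signal from both. Eif2s3x read 3891, 4687 and 4173 in Cnot3KO cells and 3717, 4842 and 5761 in control cells, a log2 difference of -0.15 ± 0.17. Eif2s3y read 333, 347 and 299.9 in Cnot3KO cells and 297, 305 and 353 in control cells, a log2 difference of 0.04 ± 0.16 that turns negative with Gapdh centring. For both copies of the gamma subunit the genotypes overlapped. A second Eif2s3y set read 11.1 to 14.3 in Cnot3KO cells and 9.72 to 11.2 in control cells. Whether the signal of the brighter set comes from the Y copy was not tested. Eif2a and Eif2d, which can deliver initiator tRNA without eIF2, had log2 differences of 0.19 and 0.12, and neither passed at an unadjusted p under 0.05.

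The Eif1 group held the steepest contrast after ActD. Eif1a, which encodes a form of eIF1A that supports scanning for the start codon, read 2040, 1413 and 2235 in Cnot3KO cells at 0, 6 and 12 h, against 2144, 422 and 459 in control cells. The genotypes were level at 0 h and parted at 6 h, when the log2 change from 0 h was -0.53 in Cnot3KO cells and -2.35 in control cells. The log2 difference over the 3 times was 1.32 ± 0.44 (adjusted p = 0.10), and a second probe set gave 1.38. Eif1ax, the X-linked paralogue, read 4210.0, 5026 and 4303 in Cnot3KO cells and 4021, 4926 and 3395 in control cells. The log2 differences were 0.07, 0.03 and 0.34 at 0, 6 and 12 h on this set, but a second and much dimmer set read 200.02, 319.8 and 195 in Cnot3KO cells and 386, 704 and 825 in control cells. Eif1b, a paralogue of the scanning factor eIF1, read 765, 1326 and 1226 in Cnot3KO cells and 1072, 1255 and 1020.2 in control cells, with overlapping groups and a log2 difference of -0.05 ± 0.19. Eif1ad, which shares a domain with eIF1A, had a log2 difference of 0.20 ± 0.15.

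**Figure D2:**
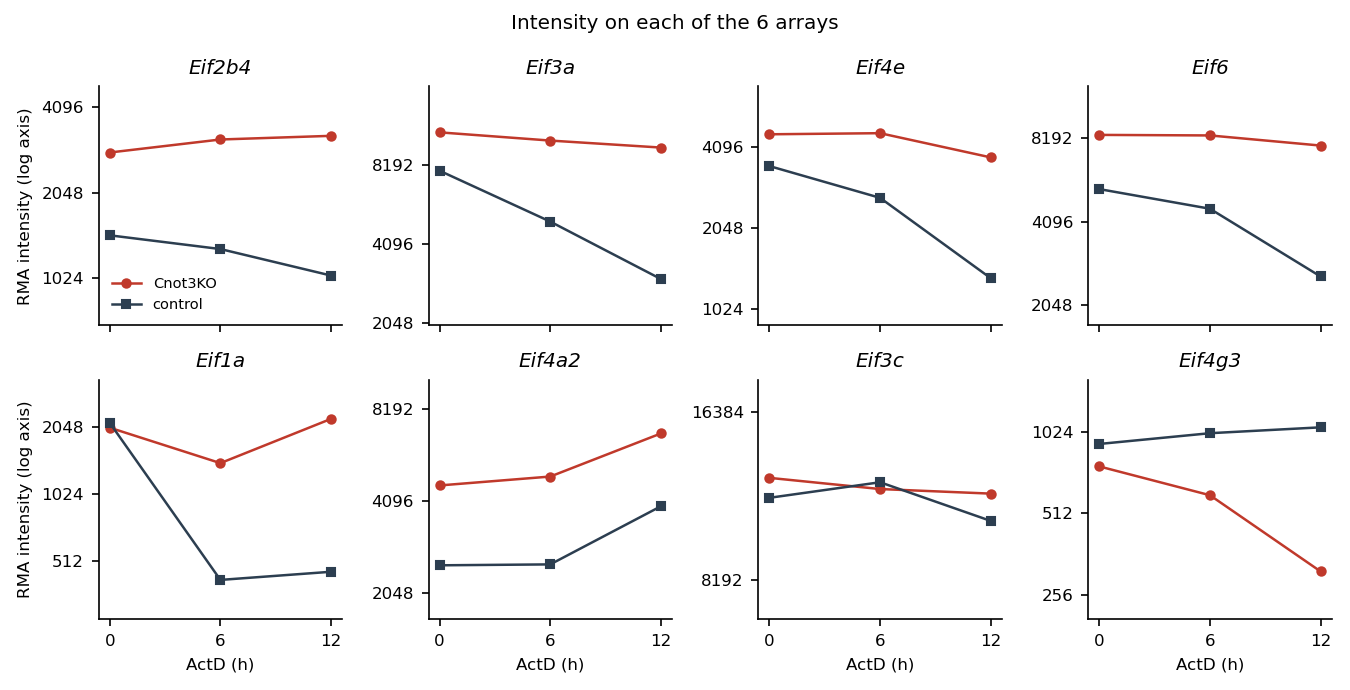
RMA intensity (log axis) by hours of ActD for 8 members, with Cnot3KO cells in red circles and control cells in dark squares, 1 array a point. Eif2b4, Eif3a, Eif4e and Eif6 stayed near their 0 h level in Cnot3KO cells and read lower at 12 h in control cells, Eif1a parted after 0 h, Eif4a2 read highest at 12 h in both, Eif3c stayed level in both and Eif4g3 read 312 at 12 h in Cnot3KO cells, against 1065 in control cells.

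eIF3, the largest initiation factor, divided by subunit. Control values at 12 h of ActD relative to 0 h set Eif3a, Eif3d, Eif3e and Eif3m apart from Eif3b, Eif3c, Eif3f, Eif3h, Eif3i, Eif3k and Eif3l. The division was made on this control change, after the values were seen. In control cells the change over 12 h was between -1.37 and -0.46 on the log2 scale for the first 4 and between -0.14 and 0.50 for the other 7. In Cnot3KO cells it was between -0.19 and 0.09 for the first 4 and between -0.22 and 0.26 for the other 7, with overlap. That the 2 sets do not overlap in control cells follows from how they were divided. The step in control cells between the sets, at -0.46 for Eif3m and -0.14 for Eif3c, is smaller than the SD of 0.51 found between probe sets of a gene for this change, and Eif3d and Eif3m have 1 bright probe set each. The other bright sets of Eif3a and Eif3e lay between -1.62 and -0.60 for it. The genotype difference over the 3 times was 0.44 to 1.06 in the first set and -0.22 to 0.08 in the second. It contains the control values on which the sets were divided, so it is no separate evidence for the division.

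**Figure D3:**
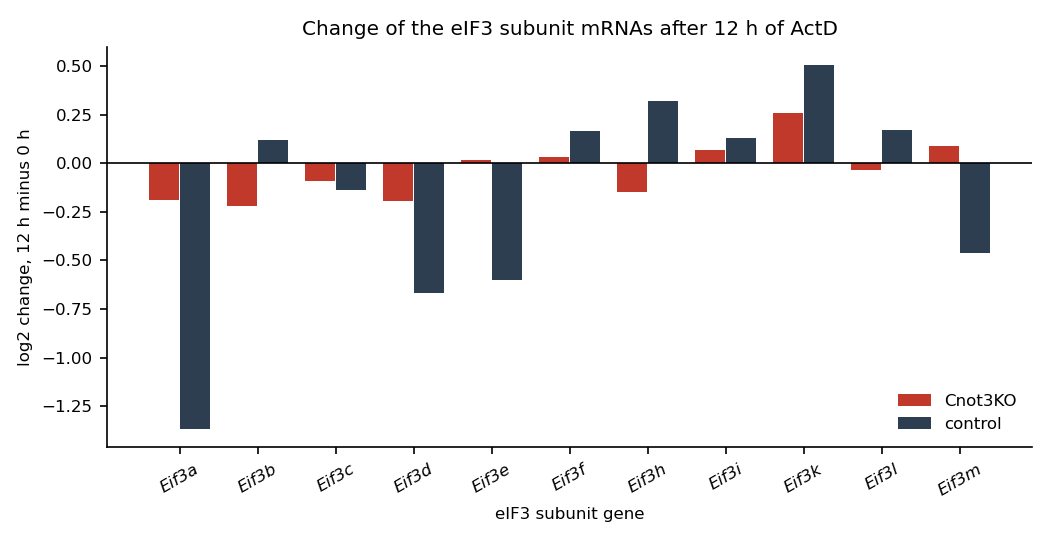
Log2 intensity at 12 h minus 0 h of ActD (y axis) for the 11 eIF3 subunit genes (x axis), with Cnot3KO cells in red on the left of each pair and control cells in dark on the right. The control bars of Eif3a, Eif3d, Eif3e and Eif3m reach from -0.46 to -1.37, and no Cnot3KO bar is below -0.22.

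Eif3a, the largest subunit and the backbone on which the core assembles, read 10873, 10119.7 and 9519 in Cnot3KO cells at 0, 6 and 12 h, against 7774, 4982 and 3014 in control cells. The groups did not overlap, and the log2 difference was 1.06 ± 0.24 over the 3 times (adjusted p = 0.060). All 4 of its probe sets gave differences between 1.04 and 1.45. Eif3d, a subunit that can bind the cap of certain mRNAs, read 7484, 7123 and 6548 in Cnot3KO cells and 4853, 4325 and 3058 in control cells. Its lowest Cnot3KO value was above its highest control value, with a log2 difference of 0.81 ± 0.16 (adjusted p = 0.054). Eif3e and Eif3m, which belong to the structural core with Eif3a, had log2 differences of 0.57 ± 0.17 and 0.44 ± 0.17 (adjusted p = 0.089 and 0.13). By contrast Eif3c, a core subunit and the brightest Eif3 probe set, read 12496, 11932 and 11709 in Cnot3KO cells and 11508, 12272 and 10461 in control cells. Its log2 difference was 0.08 ± 0.14 with overlapping groups, and its sign turns with Gapdh centring.

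Start-site sequences are shown for the eIF3 subunits because the subunits parted by their course after ActD, and mRNAs of the translation apparatus often begin with a run of pyrimidines that ties their translation to mTOR. Each window holds 15 bases before the RefSeq start and 15 from it onward on the sense strand, with runs of at least 6 successive C or T in capitals, and 8 of the 11 subunits were matched. Eif3a, Eif3d and Eif3m, with lower values at 12 h in control cells, come first.
Eif3a: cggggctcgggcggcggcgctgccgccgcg
Eif3d: gtggtagggccatttacgacagcgctggtc
Eif3m: TTTTCCggtcggcgtgtttctggatcggag
Eif3b: ctagcggcgcgcggtgacttctgggagtcg
Eif3c: ctcacctgctcagagggactcggcagctta
Eif3f: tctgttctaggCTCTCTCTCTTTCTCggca
Eif3k: aaaacaaccggcgctggtgctgaaagcgcc
Eif3l: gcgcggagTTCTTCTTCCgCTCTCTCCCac

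In assembly GRCm38.p6 these windows are chr19:60790679-60790708 for Eif3a, chr15:77970810-77970839 for Eif3d, chr2:105017013-105017042 for Eif3m, chr7:126566352-126566381 for Eif3c and chr7:28981874-28981903 for Eif3k on the minus strand, and chr5:140419290-140419319 for Eif3b, chr7:108934400-108934429 for Eif3f and chr15:79075208-79075237 for Eif3l on the plus strand. Each spans the annotated transcription start and the first bases of the first exon. A run was present in Eif3m of the first 3 and in Eif3f and Eif3l of the other 5. That of Eif3m lies wholly before the annotated start, outside the transcript, while runs of Eif3f and Eif3l cross the start. Over all matched members 11 of 34 genes held a run anywhere in the window, against 32.7% of 27025 genes in the table, and among cytosolic ribosomal protein genes 26 of 39 did. The members' share is close to that of all genes, and a run is a description of the letters only.

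Among the eIF4 proteins the helicases differed from each other. Eif4a1, the helicase of the cap-binding complex and the brightest Eif4 probe set, read 18985, 18364 and 17436 in Cnot3KO cells, against 14389, 14536 and 10318.5 in control cells. The groups did not overlap, with a log2 difference of 0.50 ± 0.16 (adjusted p = 0.092), and its 3 probe sets ran from 0.42 to 0.50. Eif4a2, its paralogue, read 4611, 4931 and 6824 in Cnot3KO cells and 2525, 2542 and 3941 in control cells. It was the member whose difference varied least among those above 0.8, at 0.87, 0.96 and 0.79 for 0, 6 and 12 h (0.87 ± 0.14 over the 3 times, adjusted p = 0.053), and both genotypes read more at 12 h than at 0 h. Eif4a3, a helicase of the exon junction complex, read 35.3, 36.8 and 35.4 in Cnot3KO cells and 33.8, 43.3 and 41.9 in control cells. These values are from the probe set that names it alone, which was below the array median on all 6 arrays. A much brighter set that names Eif4a3 together with Gm5576 had a mean log2 difference of 0.64 and is given below.

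Of the 3 cap-binding proteins, 2 had higher values in Cnot3KO cells at all 3 times. Eif4e, which binds the cap, read 4579.8, 4623 and 3755 in Cnot3KO cells at 0, 6 and 12 h, against 3485, 2652 and 1329.6 in control cells. All Cnot3KO values were above all control values, and the log2 difference was 0.90 ± 0.23 (adjusted p = 0.069). Eif4e2, a cap-binding protein that represses translation, read 3212, 3217 and 2763 in Cnot3KO cells and 2455, 2883 and 1681 in control cells, with a log2 difference of 0.42 ± 0.17 (adjusted p = 0.14). Its lowest Cnot3KO value was below its highest control value. Eif4e3, another cap-binding paralogue, read 196, 189.8 and 199.8 in Cnot3KO cells and 228, 236 and 227 in control cells, a log2 difference of -0.24 ± 0.14 in the opposite direction (adjusted p = 0.27).

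Regulators of eIF4E and its helper proteins held some of the largest changes in control cells. Eif4enif1, the eIF4E transporter that brings eIF4E to the nucleus and to processing bodies, read 903, 582 and 652 in Cnot3KO cells, against 646, 229 and 150.3 in control cells. The log2 difference was 1.32 ± 0.31 (adjusted p = 0.062), although the Cnot3KO value at 6 h was below the control value at 0 h. Eif4ebp2, which binds eIF4E and blocks its contact with eIF4G, read 1522, 1571 and 1474 in Cnot3KO cells and 1959, 1589 and 615 in control cells. Its genotype order turned with time, from -0.36 at 0 h and -0.02 at 6 h to 1.26 at 12 h on the log2 scale, and its difference over the 3 times was 0.29 ± 0.32. Eif4ebp1, the other member with this role, read 6269, 6500.5 and 5782 in Cnot3KO cells and 5593, 6881 and 6768 in control cells, with overlapping groups and a log2 difference of -0.05 ± 0.15. Eif4b, which stimulates the helicase, read 4654, 4522 and 3724 in Cnot3KO cells and 3193, 2394 and 1458 in control cells. These groups did not overlap, with a log2 difference of 0.94 ± 0.19 (adjusted p = 0.055), while Eif4h, which has the same role, had 0.35 ± 0.15 (adjusted p = 0.17).

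Of the eIF4G family, Eif4g2 and Eif4g3 were analysed and Eif4g1 was not. Both analysed genes were lower in Cnot3KO cells at all 3 times, and they were the only members lower at an unadjusted p under 0.05. Eif4g3, a paralogue of eIF4G that joins eIF4E to the helicase, read 763, 597 and 312 in Cnot3KO cells, against 924, 1013 and 1064.5 in control cells. Every control array was above every Cnot3KO array, and the log2 difference was -0.94 ± 0.29 (adjusted p = 0.093). A second probe set of the gene, near the array median, gave -0.03. Eif4g2, a family member without the eIF4E-binding part that serves cap-independent initiation, read 10667, 10260.7 and 10408 in Cnot3KO cells and 13911, 12825 and 14535 in control cells. The groups again did not overlap, with a log2 difference of -0.40 ± 0.14 (adjusted p = 0.11), and its 3 brighter probe sets gave -0.95 to -0.16.

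Among the Eif5 and Eif6 genes, Eif6 and Eif5b passed at an unadjusted p under 0.05, and Eif5, Eif5a and Eif5a2 did not. Eif6, which holds large ribosomal subunits apart from small ones, read 8404, 8366 and 7693 in Cnot3KO cells, against 5362, 4556 and 2598 in control cells. The groups did not overlap, and the log2 difference was 1.03 ± 0.21, or 2.04-fold (adjusted p = 0.055), while a second and much dimmer probe set gave 0.37. Eif5b, the GTPase of subunit joining, read 725, 731 and 778 in Cnot3KO cells and 516, 564 and 311 in control cells, with a log2 difference of 0.73 ± 0.22 (adjusted p = 0.088) and probe sets from 0.04 to 0.90. Eif5a, a hypusine-containing factor that also serves elongation and had the highest probe set of all members, read 20671, 20168 and 19858.5 in Cnot3KO cells and 21698, 21631 and 22020.1 in control cells. Its log2 difference was -0.07, -0.10 and -0.15 at 0, 6 and 12 h. Eif5a2, its paralogue, read 102, 131 and 129.8 in Cnot3KO cells and 93.0, 153 and 162 in control cells, and Eif5, which triggers GTP hydrolysis by eIF2, had a log2 difference of -0.06 ± 0.14.

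Control cells, but not Cnot3KO cells, had over 1.5-fold less at 12 h of ActD than at 0 h for 12 of the 43 members (27.9%, against 15% of all genes). The 12 were Eif1a, Eif2b3, Eif2s2, Eif3a, Eif3d, Eif3e, Eif4b, Eif4e, Eif4ebp2, Eif4enif1, Eif5b and Eif6, with 1.52-fold to 4.67-fold less in control cells and log2 changes between -0.47 and 0.13 in Cnot3KO cells. Without regard to the other genotype, 1 member was over 1.5-fold lower at 12 h in Cnot3KO cells (2.33%, against 10.5% of all genes) and 12 were in control cells (27.9%, against 23.2%). The 1 in Cnot3KO cells was Eif4g3, which was not lower in control cells (2.33%, against 2.31% with this pattern among all genes). With Gapdh centring 9 members were over 1.5-fold lower in control cells and 1 in Cnot3KO cells, against 3204 and 1861 of 16499 genes. With ribosomal centring the counts were 13 and 1, against 4032 and 1974. No comparison with genes of like intensity was run for these counts. Values are relative to the other mRNAs of the array, so a loss shared by all mRNAs does not show.

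The difference in change between genotypes was tested as a genotype by hours term, given as the log2 difference over 12 h. At an adjusted p under 0.05 there were 0 members and 0 genes of all (limma). At an unadjusted p under 0.05, 7 members changed less downward in Cnot3KO than in control cells (16.3%, against 12.8% of all genes), namely Eif2s2, Eif3a, Eif4b, Eif4e, Eif4ebp2, Eif4enif1 and Eif6, and Eif4g3 went the other way (2.33%, against 4.95%). Their adjusted p-values were between 0.181 and 0.262. Eif4enif1 had 1.63 ± 0.49 (SE), Eif4ebp2 1.63 ± 0.45, Eif3a 1.18 ± 0.28 and Eif4e 1.10 ± 0.36, against -1.49 ± 0.34 for Eif4g3. Eif4enif1 has a single probe set, and bright sets ran from 0.59 to 1.28 for Eif3a and from 0.48 to 0.92 for Eif6. They ran from -0.30 to 1.63 for Eif4ebp2, from -0.44 to 1.15 for Eif4e, from -0.10 to 0.81 for Eif4b, from -0.36 to 0.76 for Eif2s2 and from -1.49 to -0.05 for Eif4g3. Eif1a had the highest value of all, 2.36 ± 0.96, with an adjusted p of 0.28.

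**Figure D4:**
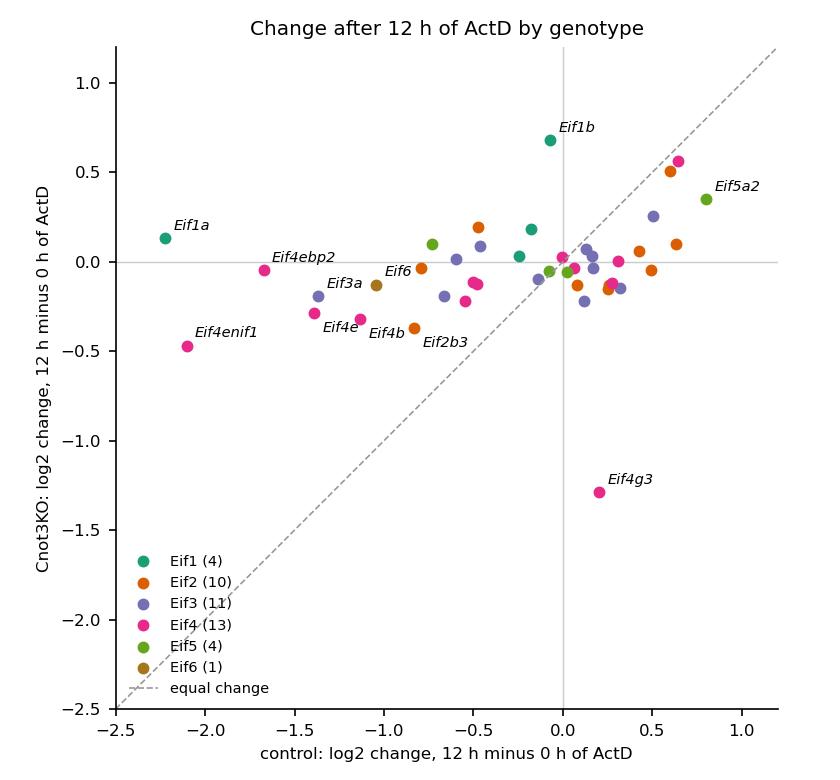
Log2 change from 0 to 12 h of ActD in Cnot3KO cells (y axis) and in control cells (x axis) for the 43 genes, coloured by group, with a dashed line for equal change. Eif1a, Eif4enif1, Eif4ebp2, Eif4e and Eif3a lie far to the left, at -1.37 to -2.22 in control cells and -0.47 to 0.13 in Cnot3KO cells, and Eif4g3 lies farthest below the line, at -1.29 in Cnot3KO cells and 0.20 in control cells.

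Averaged over the genotypes, the change at 12 h passed the test for 0 members in either direction, against 2.24% of all genes that were higher at 12 h and 4.53% that were lower (limma). At an unadjusted p under 0.05, 3 members were higher at 12 h (6.98%, against 14% of all genes), namely Eif2b2, Eif4a2 and Eif5a2, and 5 were lower (11.6%, against 15.8%), namely Eif2b3, Eif3a, Eif4b, Eif4e and Eif4enif1. The median change at 12 h was -0.04 on the log2 scale in Cnot3KO cells and -0.07 in control cells over the members, against 0.08 in Cnot3KO cells and 0.15 in control cells over all genes. The members' control median turned to 0.11 with Gapdh centring, where that of all genes was 0.34.

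Genes around the initiation pathway were taken from lists and read with the same fit; "without adjustment" stands for an unadjusted p under 0.05, at which 22.4% of all genes were higher and 11% lower. Of 9 genes for the eIF2 kinases and the phosphatase that reverses them, 0 passed the adjusted test and 5 were higher without adjustment, none lower, with a median log2 difference of 0.67. Nck1, an adaptor that binds eIF2, Eif2ak3 (Perk, the kinase of the endoplasmic reticulum) and Ppp1r15b, a phosphatase subunit, had the largest values, 1.91 ± 0.52, 1.12 ± 0.18 and 0.78 ± 0.28. Of 10 genes for Atf4 and its stress targets, Chac1 was higher past the adjusted test (1.14 ± 0.15, adjusted p = 0.0499), and 6 were higher and 1 (Atf5, -0.71) lower without adjustment. The calls of Chac1 and of the macrophage markers Mrc1 and Vsig4 were lost with no filter, with the filter at the 50th percentile, with 16 added and without the 6 h or the 12 h arrays (adjusted p between 0.0511 and 0.371), and that of Chac1 also with hours as a number (0.10). Atf4 itself, whose translation rises when eIF2 is phosphorylated, read 7659, 2810.1 and 2359 in Cnot3KO cells at 0, 6 and 12 h, against 6032, 1018 and 936 in control cells.

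Of 13 tested genes for mTOR signalling and the eIF4E kinases, 5 were higher and 1 lower without adjustment and 0 passed after it, with a median of 0.31. Ddit4, an inhibitor of mTOR, Pdcd4, an inhibitor of the helicase eIF4A, and Tsc1, a subunit of a complex that restrains mTOR, had 1.14 ± 0.24, 1.07 ± 0.35 and 0.66 ± 0.18. In the other direction, and named after their values were seen, the gene lower without adjustment was Deptor, also an inhibitor of mTOR (-0.64 ± 0.17), and Tsc2, the partner of Tsc1, had -0.40 ± 0.19. Of 8 mitochondrial initiation factor and translation genes 4 were higher and 0 lower without adjustment, led by Mtrf1l, Mtfmt and Mtif3 at 1.51, 1.40 and 1.01. Termination and recycling factors had 4 higher and 1 (Hbs1l, -0.51) lower of 9, led by Gspt2 (a form of the release factor eRF3) at 1.51, Pelo at 0.92 and Denr at 0.77. Of 10 genes listed with the elongation factors 3 were higher and 1 lower, and their median was -0.03. Eef2k, the kinase of eEF2, had 1.34, Eef1e1 1.04 and Dph1 -0.83, and Eef1akmt1 was also higher, at 0.39. None of these is an elongation factor itself. The factors Eef1a1, Eef1a2, Eef1b2, Eef1d, Eef2 and Eefsec were neither higher nor lower without adjustment, at -0.24 to 0.03. Poly(A)-binding proteins and partners had 1 higher and 0 lower of 8 (Larp4, 0.68), and accessory helicases and initiation mimics had 2 higher and 0 lower of 8 (Abcf3, 1.39, and Ddx3x, 0.42). The shares that were higher are near that of all genes for the elongation list and the accessory helicases and below it for the poly(A)-binding proteins. None of these 6 lists had a gene past the adjusted test.

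Ribosomal protein and other pyrimidine-run mRNAs had medians near that of all genes. Of 11 mRNAs outside the initiation factors that are known to begin with a pyrimidine run, some of them in the lists above, 1 (Npm1, 0.43) was higher and 0 were lower without adjustment, with a median of -0.03 and a range of -0.25 to 0.43. Over 45 cytosolic ribosomal protein genes the median was -0.05 and the range -0.86 to 0.97, with 3 higher and 6 lower without adjustment. None of the 45 was over 1.5-fold lower at 12 h in either genotype. In control cells 12 of the 43 initiation factor genes were (27.9%), near the 23.2% of all genes. In Cnot3KO cells 1 of the 43 was (2.33%, against 10.5% of all genes). The Argonautes, which once shared the Eif2c symbol, had 0 higher and 1 lower of 4 (Ago2, -0.70 ± 0.14, adjusted p = 0.054).

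**Figure D5:**
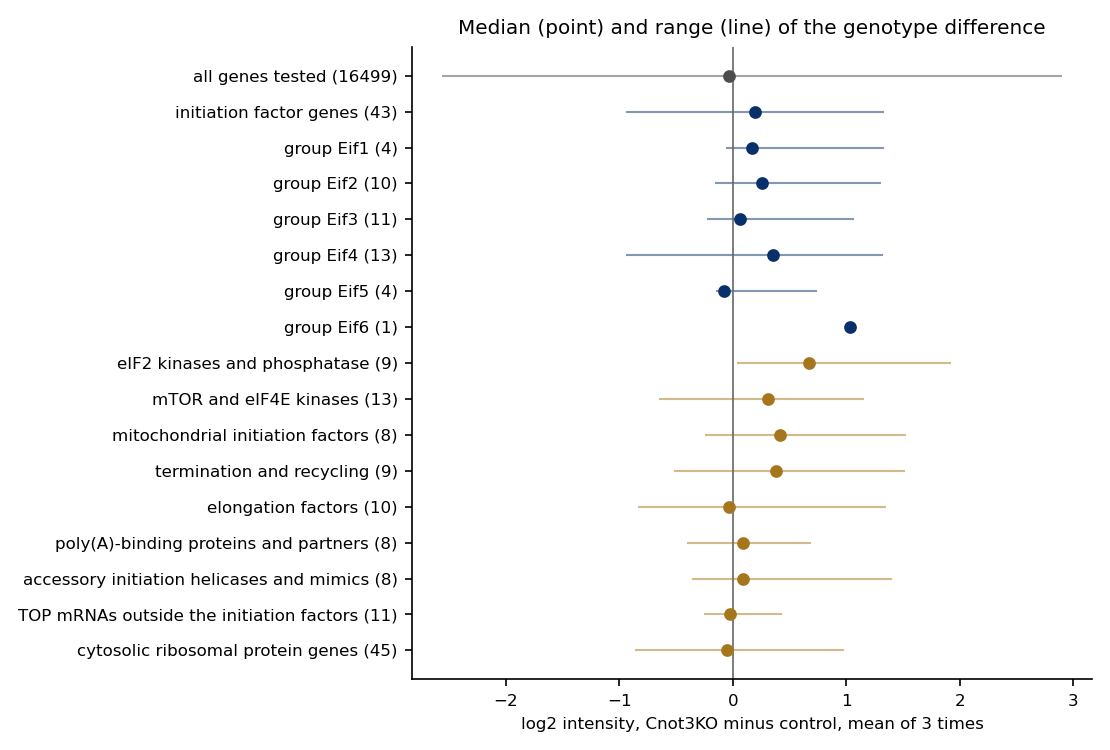
Median (point) and range (line) of the log2 intensity in Cnot3KO minus control cells over the 3 times (x axis) for all genes tested, for the initiation factor groups (blue) and for related lists (brown), with the number of genes in parentheses (y axis). The Eif4 median is at 0.35 and the eIF2 kinase and phosphatase median at 0.67, while ribosomal protein genes lie at -0.05 and all genes at -0.03.

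Agreement between probe sets sets the precision of single genes. Over 4117 genes with 2 probe sets above the median on all arrays, the SD between sets was 0.24 for the difference at 0 h, 0.32 for the difference over the 3 times, 0.42 for the difference in change, and 0.25 in Cnot3KO cells and 0.51 in control cells for the change at 12 h. In 27 members with such a pair, the brightest sets of each gene had the same sign in 21 for the difference over the 3 times and in 24 for the difference in change. The 6 whose brightest pair differed in sign over the 3 times were Eif1ad, Eif1ax, Eif2a, Eif3c, Eif3i and Eif4ebp1, and Eif3a, Eif3e, Eif4a1, Eif4b, Eif1a and Eif6 were among those whose bright sets were all positive.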

How the data were processed

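The authors hybridised RNA from 6 samples (2 genotypes, 3 times, 1 array each) and deposited Robust Multi-array Average (RMA) intensities on a linear scale, with a software version not given in the sources used here. RMA equalises the arrays, so values are relative. Depth has no meaning for arrays, whose number limits the precision. Of 45037 probe sets, 34945 carried 1 symbol, 932 several and 9160 none in the platform annotation.

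Here log2 was taken and genes above the 20th percentile on at least 1 array were kept (16499 of 18193, with all 43 members). limma 3.58.1 in R 4.3.3 fitted genotype with time as a factor, and genotype by hours, each with 2 residual degrees of freedom, and p-values were adjusted by Benjamini-Hochberg over all genes at 0.05. No test was possible at 0 h, where 1.5-fold was counted. The fits were tested on simulated data. Values are given for members past a test, beyond 1.5-fold at 0 h, brightest or most different in a group, and in paralogue sets, and for up to 3 genes of each related list. Members and lists were chosen with earlier results of these data known. Start sites are from RefSeq (GRCm38.p6), in which 34 members outside chromosome 18 were matched. Alternatives were other filters, probe set rules, scalings, variance priors and times left out.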

Additional observations from a re-analysis of the deposited data

Results flagged for a closer look

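After ActD, Eif2b4, Eif3l and Eif4g3 moved in opposite directions in the 2 genotypes at both later times, a difference that was not tested in that form. The difference in change over 12 h (Cnot3KO minus control, log2) was 0.67 for Eif2b4, which was above its 0 h value in Cnot3KO cells and below it in control cells. It was -0.21 for Eif3l and -1.49 for Eif4g3, both below their 0 h value in Cnot3KO cells and above it in control cells. The genotype by hours term gave adjusted p-values of 0.29, 0.75 and 0.18 for these 3 genes (limma), and Eif3l moved by less than the SD between probe sets of 0.42. Its change at 6 h in Cnot3KO cells was only -0.005. A second bright set of Eif3l was higher at 12 h in both genotypes (0.14 in Cnot3KO and 0.25 in control cells). So was a second bright set of Eif4g3 (0.20 in Cnot3KO and 0.25 in control cells).

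Probe sets that name an initiation factor together with another gene entered no comparison and also differed between genotypes. The probe set of Eif3j2 and Eif3j1 read 4699.5, 5513 and 5038 in Cnot3KO cells at 0, 6 and 12 h, against 3619, 3425 and 1979 in control cells, a mean log2 difference of 0.80. The set of Gm5576 and Eif4a3 read 3410.0, 3467 and 3364 in Cnot3KO cells and 2616, 2442 and 1657 in control cells, a mean difference of 0.64. For Ankhd1 and Eif4ebp3 the mean difference was 1.11, and for Gm4027, BB287469 and Eif1a, on a dim set of 49.8 to 67.7 in Cnot3KO and 43.04 to 49.7 in control cells, it was 0.34. Which of the named genes each signal comes from was not tested.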

How the results depend on the processing

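The count of members higher past the adjusted test, 1 (Eif2b4) as reported, was 1 with ribosomal centring (2.33%, against 0.812% of all genes). It was 0 with no filter, with the filter at the 50th percentile, with 16 added to the intensity and without the 6 h arrays. There 0 of all genes passed as higher. Without the 12 h arrays it was 0, against 0.255% of all genes. It was 2 of 34 with only unique probe sets (Eif2b3 and Eif4a2, 5.88%, against 3.3%). With the mean of the probe sets it was 7 (16.3%, against 7.47%), and with hours as a number 7 (16.3%, against 7.99%). Gapdh centring gave 10 (23.3%, against 10.9%) and a variance trend 13 (30.2%, against 9.19%). Without the 0 h arrays it was 15 (34.9%, against 24.3%). Members lower, 0 as reported, were 1 with unique probe sets (Eif1ax, 2.94%, against 1.07% of all genes) and 1 with the trend (Eif4g2, 2.33%, against 3.32%). Eif4g3 was the 1 lower with Gapdh centring (2.33%, against 5.05%) and without the 0 h arrays (2.33%, against 10.9%). At an unadjusted p, the 17 higher became 9 of 34 with unique probe sets (26.5%, against 21%). They became 10 without the 6 h arrays (23.3%, against 10.5%) and 11 without the 12 h arrays (25.6%, against 15.4%). Members with less loss in Cnot3KO cells, 7 without adjustment, were 4 with Gapdh centring. The change at 12 h passed for 1 member with Gapdh centring and 1 with the trend, against 0. The 6 members beyond 1.5-fold at 0 h were 2 with Gapdh centring. For these last results the share of all genes at the same setting is not given. A shift of the members therefore cannot be told from a shift of all genes there. The cause of these shifts was not tested. The members' median difference stayed between 0.03 (mean of the probe sets) and 0.24. For single genes 302 values were compared under the alternatives. Of these 239 were the same, 5 (all Eif2b4) lost the call, 51 gained one, 7 moved and 0 reversed. Same stands for an unchanged direction and side of the threshold. The difference in change was also read from 6 h or 12 h alone, without a test. There same stands for a value within the SD between probe sets of 0.42, and moved for a larger shift. The 12 h reading equals the fitted term by its form, so it could not differ.

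No probe set names Gapdh alone, so centring used the brightest of 3 sets that list it. With a single array per genotype and time the design gives no estimate of the spread between embryos, and leaving out a time left no residual degrees of freedom for the difference in change. No paired analysis was possible because the labels number no replicates.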
